A study of Mus musculus with 9 samples.

Results

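The comparison described here is that of bone 7 days after weaning with bone on day 12 of lactation, in CD1 wild-type mice of 16 to 18 weeks. It rests on 6 of the 9 arrays of the series, the 3 titled post-lactation and the 3 titled lactation. Lactating dams nursed litters adjusted to 8 to 13 pups and were killed on day 12. Post-lactation dams nursed the same range of litters, lost their pups on day 12 and were killed 7 days later. The other 3 arrays came from age-matched virgin mice, and they are used for the spread between arrays and as reference levels. All groups shared the strain, the age and the tissue. RNA came from tibial shafts cleared of periosteum and of marrow by centrifugation, stripped of surface cells by repeated collagenase, trypsin and EDTA digestion, and powdered. It is therefore bone tissue enriched for osteocytes and not a sorted cell population. The question stated for the series was which genes take part in perilacunar remodelling, the removal and replacement of matrix by the osteocyte itself.

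Values are deposited log2 expression levels, so a difference of 1 is a doubling. The arrays form 3 sets, each with 1 array of every group, recognised by exactly equal values among arrays that were summarised together. Set 1 holds lactation 3 and post-lactation 1, set 2 lactation 2 and post-lactation 3, and set 3 lactation 1 and post-lactation 2. Within sets 2 and 3 such equal values give 37.5% and 32.4% of genes a difference of exactly 0, against 2.30% in set 1. The equal values also enter the SE and adjusted p of the fit with the set as a block, and their effect on these was not tested. Each difference below is post-lactation minus lactation, fitted with the set as a block, with its SE, and a gene was called at an adjusted p under 0.05 (limma, Benjamini-Hochberg over all 45101 probe sets). The adjusted p without the block is given where it changes the call. For the post-lactation arrays the titles were followed, although their source field says virgin. Whether each array is a different mouse is not said in the labels, and the p-values may therefore reflect technical spread alone.

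Osteocytes are cells buried in mineralised bone that sense load, secrete the Wnt inhibitor sclerostin and regulate phosphate. During lactation they can enlarge their lacunae with enzymes otherwise known from osteoclasts, and the matrix is replaced after weaning. The marrow beside this bone makes red cells and lymphocytes. Red cell precursors divide several times while they load iron into heme, build a membrane skeleton and then lose their nucleus.

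Of 18194 genes, 428 fell after weaning (2.35%) and 51 rose (0.28%). Without the set as a block the counts were 100 fallen genes (0.55%) and 1 risen gene (0.0055%), and 99 of the fallen genes and the risen gene were called both ways. With the virgin arrays left out of the fit and the set kept as a block, limma called 59 genes as fallen, all of them among the 428, and 3 as risen, none of them among the 51. The median difference of the fallen genes was -1.01, that of the risen genes 0.72 and that of all genes 0.00. Of the fallen genes 216 passed 2-fold, 71 passed 4-fold and 34 passed 8-fold. Only 9 risen genes passed 2-fold and 1 passed 4-fold. The lactation and post-lactation arrays did not overlap for 366 of the 428 fallen genes and 36 of the 51 risen genes. Over all genes the shares without overlap were 4.38% with post-lactation lower and 3.26% with it higher. The calls were made on these same arrays, so the lack of overlap is not separate support for them. Leaving out any 1 lactation or post-lactation array left between 116 and 221 fallen and between 2 and 13 risen genes. Leaving out virgin 1, an array whose osteocyte markers stood at 3.35 above its median against 5.22 and 5.57 on the other virgin arrays, gave 474 fallen and 116 risen genes, and leaving out virgin 2 gave 270 and 15. Without all 3 arrays of set 1 limma called 0 genes, with 4821 probe sets at an unadjusted p under 0.05.

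**Figure D1:**
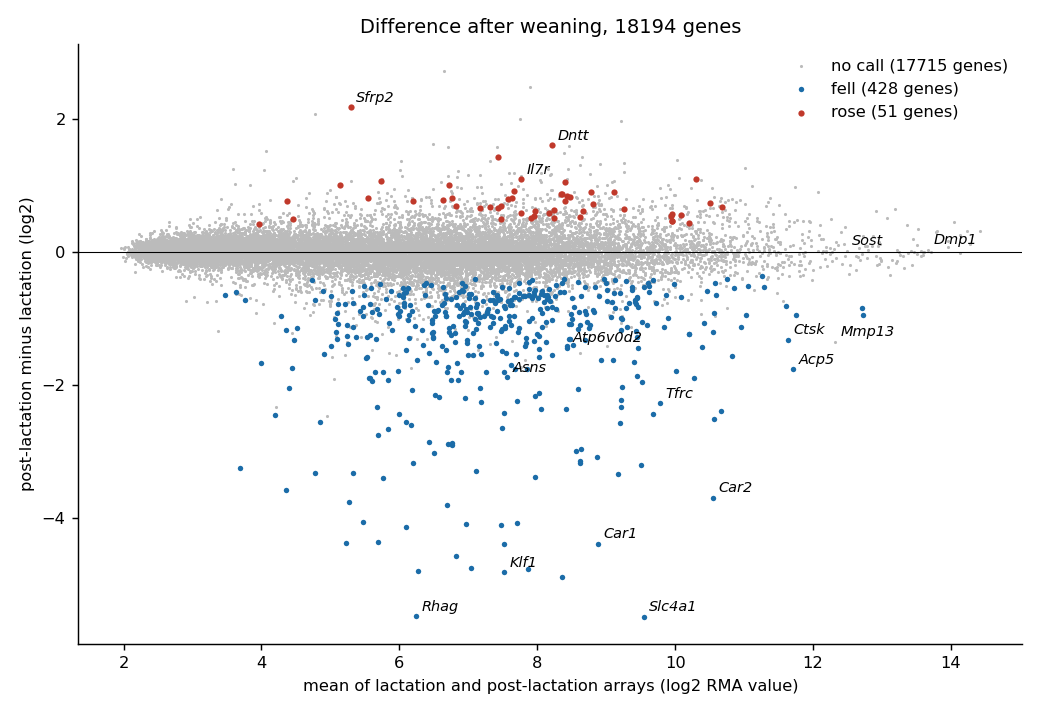
Each point is a gene, placed by its mean level on the lactation and post-lactation arrays (horizontal axis, log2) and by the difference post-lactation minus lactation (vertical axis, log2), with blue for the 428 genes that fell and red for the 51 that rose. The called falls reach -5.47 (Slc4a1) and the called rises 2.17 (Sfrp2), while Sost and Dmp1 lie on the zero line.

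The deepest falls were those of red cell genes. Slc4a1, or band 3, which exchanges chloride and bicarbonate across the red cell membrane, stood at 12.29, 12.71 and 11.84 on lactation arrays 1 to 3 and at 7.17, 7.31 and 5.96 on post-lactation arrays 1 to 3. Every post-lactation value lay more than 4 log2 units below every lactation value. The virgin arrays, at 10.78, 11.75 and 10.67, lay below the lactation arrays and far above the post-lactation arrays. The difference was -5.47 (SE 0.48, adjusted p 0.0054), a 44.4-fold fall, and it was -4.67, -6.76 and -4.99 within sets 1, 2 and 3. A second bright probe set of Slc4a1 fell by 5.21. The call of Slc4a1 was lost without lactation 2, lactation 3 or post-lactation 1, where the difference stayed between -5.83 and -4.77. In bulk RNA fewer cells of a type and less RNA per cell cannot be told apart.

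Rhag, which encodes the Rh-associated glycoprotein, had levels of 8.69, 9.37 and 8.84 in lactation and 3.30, 4.02 and 3.20 after weaning. Its post-lactation mean was under 4.87, the lowest level taken here to support a fold (40% of genes have a mean below it). Measured against that level Rhag fell at least 17.2-fold (difference -5.46, SE 0.34, adjusted p 0.0024), and it kept its call with any 1 of the 9 arrays left out. Klf1, the transcription factor that drives adult globin and membrane genes, had levels of 9.51, 10.42 and 9.83 in lactation and 4.71, 5.77 and 4.87 after weaning. Its fall was 27.9-fold (difference -4.80, SE 0.42, adjusted p 0.0052), lost without lactation 2, lactation 3 or post-lactation 1, with differences of -5.38 to -4.34. Alas2, the first enzyme of heme synthesis in red cells, went from 10.04, 10.70 and 9.98 to 6.05, 5.62 and 4.78. It fell 27.1-fold (difference -4.76, SE 0.50, adjusted p 0.011), and the call was lost without any 1 lactation array or without post-lactation 1, with differences of -5.16 to -4.05. For Rhag, Klf1 and Alas2 alike, no post-lactation value came near the lowest lactation value.

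**Figure D2:**
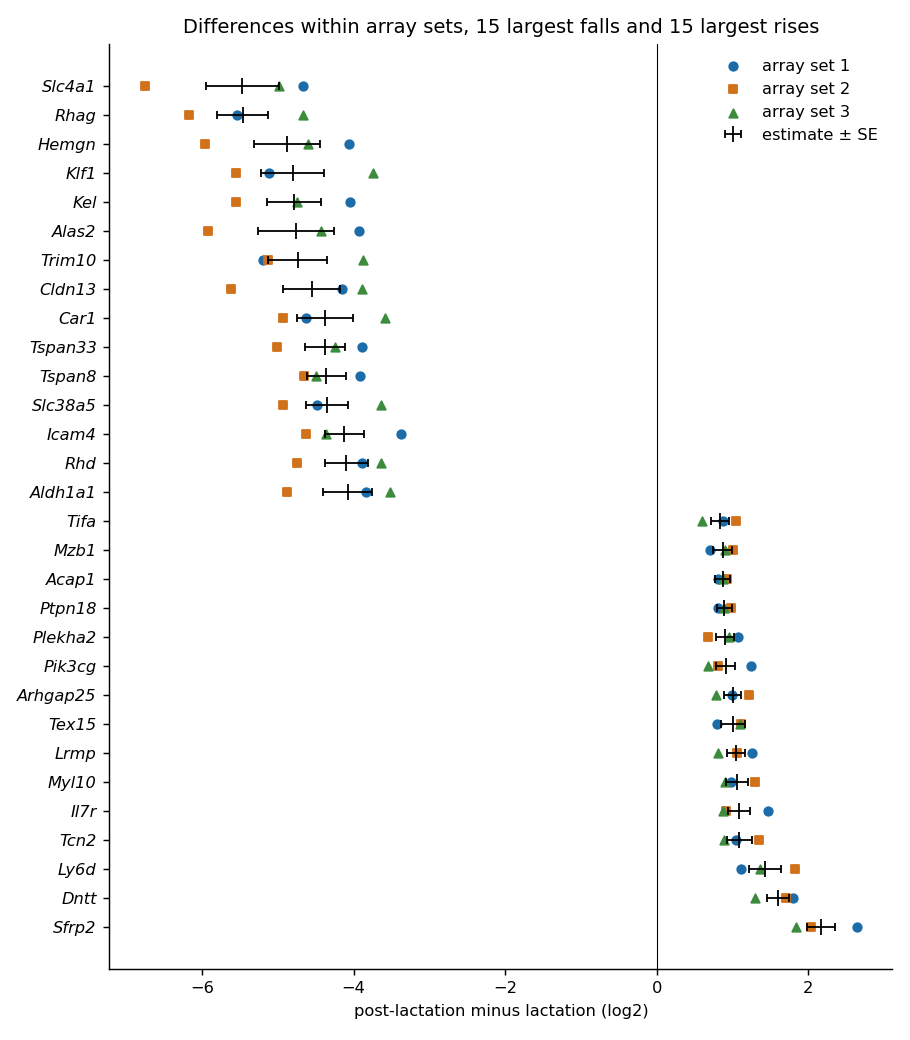
Differences post-lactation minus lactation (log2) within array sets 1, 2 and 3 (coloured points) and the fitted estimate with its SE (black) for the 15 largest called falls and the 15 largest called rises. The genes were chosen to agree in sign across all 3 sets, so that agreement is not a result. The fitted estimates lie between -5.47 and -4.08 for the falls and between 0.84 and 2.17 for the rises.

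The 15 deepest falls were Slc4a1, Rhag, Hemgn, Klf1, Kel, Alas2, Trim10, Cldn13, Car1, Tspan33, Tspan8, Slc38a5, Icam4, Rhd and Aldh1a1. All 15 were also called without the block. In the fit of the 6 lactation and post-lactation arrays alone only Tspan8 kept its call (adjusted p 0.048), and the other 14 had an adjusted p of up to 0.073, Slc4a1 one of 0.067, Rhag 0.052, Klf1 0.066 and Alas2 0.073. Hemgn, a nuclear protein of blood precursors, fell 29.5-fold (difference -4.88, SE 0.43). Kel, the Kell blood group protein, fell at least 13.9-fold, and Icam4, the Landsteiner-Wiener blood group protein, at least 9.81-fold. Car1, the carbonic anhydrase abundant in red cells, fell 20.8-fold from lactation levels of 10.77, 11.18 and 11.26 to 6.63, 7.18 and 6.25. Slc38a5, a glutamine transporter, fell at least 8.01-fold. Rhag, Kel, Tspan33, Tspan8, Slc38a5 and Icam4 kept their calls in all 9 fits that left out 1 array. The other 9 genes lost it in at least 1 of them, with no change of sign.

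The promoters of the deepest falls are shown because red cell genes are known targets of GATA1, which binds GATA sequences, and of KLF1, which binds CACC boxes. Promoter windows of 300 bases (250 before to 50 after the start, RefSeq, GRCm38.p6) were searched on both strands for a GATA hexamer, which was AGATAA or else AGATAG, or TGATAA with its variant TGATAG, and for the CACC box CCACCC. Capitals mark the matches. A match on the other strand appears as its reverse complement, and matches can overlap. Alas2 lies at chrX:150547167-150547466 on the plus strand, Hemgn at chr4:46404134-46404433 on the minus strand, Klf1 at chr8:84901732-84902031 on the plus strand, and Sfrp2, the largest called rise, at chr3:83766071-83766370 on the plus strand.
Alas2: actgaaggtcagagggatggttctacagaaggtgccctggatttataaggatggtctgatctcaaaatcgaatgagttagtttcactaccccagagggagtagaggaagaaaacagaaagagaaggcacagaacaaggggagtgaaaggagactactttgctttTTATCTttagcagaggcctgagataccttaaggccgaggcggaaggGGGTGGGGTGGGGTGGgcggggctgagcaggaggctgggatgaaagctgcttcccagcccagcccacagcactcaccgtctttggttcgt
Hemgn: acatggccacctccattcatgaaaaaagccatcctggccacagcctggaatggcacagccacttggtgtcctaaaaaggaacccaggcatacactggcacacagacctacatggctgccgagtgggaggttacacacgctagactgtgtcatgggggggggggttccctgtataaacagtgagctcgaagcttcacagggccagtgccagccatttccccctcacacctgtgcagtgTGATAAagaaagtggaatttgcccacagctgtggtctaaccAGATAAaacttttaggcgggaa
Klf1: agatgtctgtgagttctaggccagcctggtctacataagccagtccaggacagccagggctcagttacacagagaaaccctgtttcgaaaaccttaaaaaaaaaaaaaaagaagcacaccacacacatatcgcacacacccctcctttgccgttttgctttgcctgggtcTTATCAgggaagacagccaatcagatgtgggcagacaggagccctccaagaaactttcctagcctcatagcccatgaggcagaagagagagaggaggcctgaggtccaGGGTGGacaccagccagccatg
Sfrp2: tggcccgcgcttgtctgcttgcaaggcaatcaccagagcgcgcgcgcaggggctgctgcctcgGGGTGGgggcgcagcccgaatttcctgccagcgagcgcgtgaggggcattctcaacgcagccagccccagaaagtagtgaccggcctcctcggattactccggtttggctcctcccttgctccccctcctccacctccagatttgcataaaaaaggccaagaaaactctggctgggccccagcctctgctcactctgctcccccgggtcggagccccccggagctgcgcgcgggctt

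Alas2 holds 1 GATA match and 3 overlapping CACC boxes, Hemgn 2 GATA matches and no CACC box, Klf1 1 of each, and Sfrp2 no GATA match and 1 CACC box. Of the 15 deepest falls 12 had a promoter in the table, and 11 of these 12 held a GATA match, Tspan33 being the exception. Of the 34 genes that fell more than 8-fold, 26 had a promoter and 21 of these held a GATA match, in 61.1% of their 36 windows. The same motif was found in 22.3% of the 18110 windows of all genes tested and, counted by gene, in 25.5% of genes with a promoter. Among the windows of all 428 fallen genes 24.8% held it. The share was 36.4% of windows for falls of 4-fold to 8-fold, 18.4% for 2-fold to 4-fold, 20.9% for smaller falls and 21.5% for the genes that rose. CACC boxes were in 47.2% of windows of the deepest falls and 36.5% of all windows, and both motifs together in 36.1% and 6.89%. The grouping by size of fall was chosen after the values were seen, and a match is a description of the letters, not a binding site.

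Red cell genes fell across the roles that build the cell. In the list of membrane and skeleton genes, 14 of 19 measured members fell (13 without the block), beside 2.35% of all genes. In all 3 sets 18 were lower, beside 16.1% of all genes. The median difference was -2.86, with -2.84, -3.16 and -2.58 within sets 1, 2 and 3. Besides those named, the fallen members included Epb42 (-4.05), Dmtn (-2.60) and Ank1 (-2.24), which tie the skeleton to the membrane. Another was the skeleton protein Tmod1 (-2.86). The glucose transporter Slc2a1 differed by 0.07 and did not pass the test. None rose, and none was higher at an unadjusted p under 0.05 either. With 1 array left out, between 9 and 14 members were called, the fewest without lactation 3, and with the 6 arrays alone 4 were called.

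Of 13 measured genes of the globin and heme list, 11 fell, beside 2.35% of all genes, and 10 of these 11 were called without the block. The median difference was -2.43, and between 6 and 11 members were called with 1 array left out, the fewest without lactation 3, and 4 with the 6 arrays alone. All 7 enzymes of heme synthesis measured here fell. After Alas2 came Alad (-2.99), Uros (-2.42), Urod (-2.43), Cpox (-3.16), Ppox (-1.47) and Fech (-3.20), the enzyme that inserts the iron. Slc25a37, the importer of iron into mitochondria, had levels of 10.50, 11.43 and 10.58 in lactation and 7.82, 7.18 and 7.54 after weaning, a difference of -3.33 (adjusted p 0.0041). Fech, at 10.92, 11.60 and 10.80 against 7.47, 8.01 and 8.25, fell 9.18-fold (SE 0.19 on the log2 scale, adjusted p 0.0023). Neither gene overlapped between the groups. Globin genes themselves were poorly measured: the Hba-a1 probe set lay below 4.87 in both groups, and the 2 probe sets of Hbb-b2, whose near-identical copies can share signal, differed by -3.79 and 1.63, both called.

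In the list of iron uptake, storage and export 4 of 13 members fell (2 without the block and 0 with the 6 arrays alone), beside 2.35% of all genes. The median was -0.29, and between 1 and 3 members fell with 1 array left out. Tfrc, the transferrin receptor that brings iron into the cell, went from 10.41, 11.29 and 11.06 to 8.86, 8.48 and 8.62, a 4.82-fold fall (difference -2.27, SE 0.17, adjusted p 0.0034). Its groups lay more than 1 log2 unit apart. Tfr2, a second transferrin receptor, fell 2.87-fold. Cp, the copper oxidase of iron export, fell by 0.92 and Ncoa4, the ferritin receptor of autophagy, fell by 0.52, and both lost the call without the block (adjusted p 0.90 and 1.00). Outside the lists, 9 mitochondrial genes known from iron-sulfur clusters or heme precursors were picked from the calls after the values were seen, and how many such genes were measured was not counted. They were Glrx5 (-1.90), Isca1 (-1.43), Bola3 (-1.10), Lyrm4 (-0.89), Isca2 (-0.67) and Nfs1 (-0.64), and the carriers Slc25a39 (-1.56), Abcb6 (-1.42) and Tmem14c (-1.14). Of these 9, Glrx5, Isca1 and Slc25a39 were also called without the block.

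Among red cell transcription factors and erythropoietin signalling genes, 7 of 18 fell (4 without the block and 0 with the 6 arrays alone). The share over all genes was 2.35%, and the median of the list was -0.35. The fallen members were Klf1, Tal1 (-2.36), Gata1 (-2.19), Gfi1b (-1.92), Epor (-1.80), the receptor for erythropoietin, Sox6 (-1.78) and Lmo2 (-1.13). Gata1 was at 7.50, 8.56 and 8.06 in lactation and 6.61, 5.06 and 5.88 after weaning. Its groups did not overlap, but post-lactation 1 was the highest of its group, and the adjusted p was 0.018 with the block and 0.072 without. Among the 11 members that did not pass, Gata2 differed by 0.20, Myb by 0.37, Ikzf1 by 0.35 and Bcl11a, a repressor of fetal globin, by 0.63. With 1 array left out, between 0 and 8 members of the list were called, with 0 without lactation 3 and 8 without virgin 1.

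Genes of late red cell maturation fell in 17 of 20 cases (11 without the block), beside 2.35% of all genes, with a median of -2.14. They include Bpgm (-2.95), which sets oxygen affinity, Prdx2 (-2.39) and Gpx1 (-0.94), which remove peroxide, and Ube2o (-1.18) and Xpo7 (-1.86), which act while the nucleus and old proteins are cleared. Only Nxn was higher, by 0.16. Between 6 and 17 members were called with 1 array left out, the fewest without lactation 3, and 4 with the 6 arrays alone. Outside the list, 2 amino acid carriers were named because they fell, Slc43a1 by 7.24-fold and Slc6a20a by at least 2.97-fold.

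**Figure D3:**
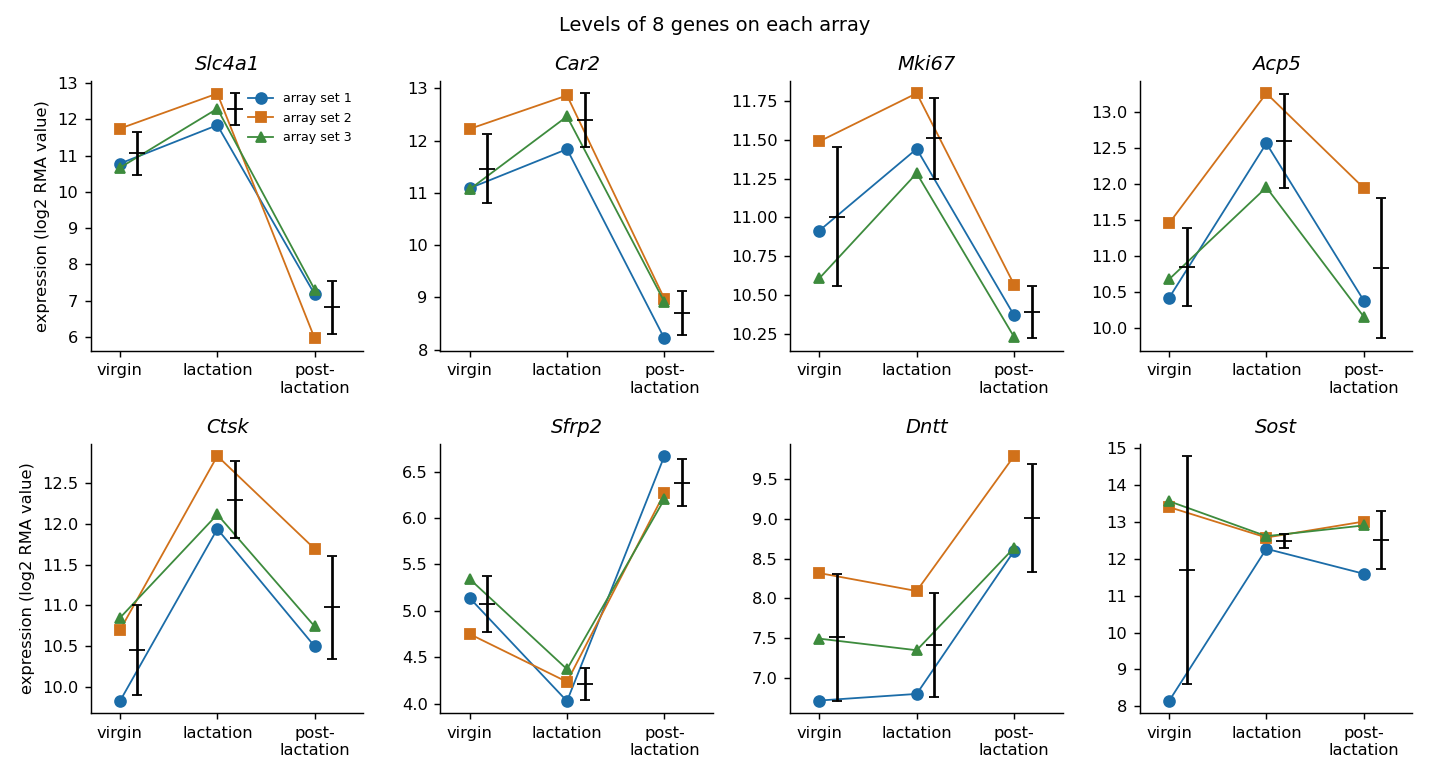
Log2 level on each array of 8 genes, with arrays of 1 set joined by a line and the mean ± SD of each group (n = 3) in black beside it. Slc4a1, Car2 and Mki67 are lowest after weaning, Acp5 and Ctsk are highest in lactation, Sfrp2 is lowest in lactation, Dntt is highest after weaning within each set, and Sost is low on virgin 1 alone.

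Of 35 measured genes of DNA replication 20 fell and 15 did not pass, beside 2.35% of all genes that fell. All 35 were lower, beside 49.6% of all genes, and 31 of them in all 3 sets (16.1% of all genes were lower in all 3 sets). The median was -0.85, with medians of -0.95, -0.86 and -0.77 within sets. Exactly equal values within a set count as neither lower nor higher and hold down the share over all genes. Without the block 2 members were called, Cdc6 and Rrm2, and with the 6 arrays alone 2 were called, Cdc6 and Cdt1. Cdc6, which loads the helicase at origins, was at 7.83, 8.64 and 8.08 in lactation and 5.96, 5.84 and 6.63 after weaning, and it fell 4.12-fold (SE 0.18, adjusted p 0.0054). Rrm2, the regulated subunit of ribonucleotide reductase, went from 10.79, 11.45 and 11.07 to 9.47, 9.72 and 9.85 and fell 2.68-fold. In both genes the highest post-lactation array stayed below the lowest lactation array. The helicase subunits Mcm2, Mcm4, Mcm5, Mcm6 and Mcm7 fell, by 0.67 for Mcm6 to 1.17 for Mcm2, while Mcm3 (-0.69) did not pass. Ccne1 and Tk1, which act at the entry into S phase, fell 2.92-fold and 2.73-fold with the block and were not called without it (adjusted p 0.17 and 0.38). The number of called members was 7, 3 and 5 without lactation 1, 2 and 3, 4, 15 and 8 without post-lactation 1, 2 and 3, and 25 without virgin 1.

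Mitosis genes were lower by less. All 39 were lower, beside 49.6% of all genes, and the median was -0.47. With the block 10 fell, beside 2.35% of all genes, and 0 fell without the block or with the 6 arrays alone. Mki67, the proliferation marker Ki-67, had levels of 11.28, 11.80 and 11.44 in lactation and 10.37, 10.23 and 10.57 after weaning. It fell 2.17-fold (difference -1.12, SE 0.11, adjusted p 0.0076 with the block and 0.21 without). Birc5, or survivin, fell 2.28-fold and Hmmr, a spindle protein, 2.05-fold, and Hmmr kept its call with any 1 array left out. Foxm1 (-0.06), Top2a (-0.16) and Plk1 (-0.40) did not pass. At an unadjusted p under 0.05, 28 members were lower and 0 higher, beside 1730 lower and 1028 higher of all 18194 genes. The number called was 1 or 2 without any 1 lactation array, 1 to 4 without any 1 post-lactation array, 4 without virgin 2 and 16 without virgin 1. The difference between the replication and the mitosis lists was not tested.

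The red cell precursor markers measured here are all among the 15 deepest falls given above, so they are not a separate measure. Their mean was 5.68 to 6.06 above the array median on the lactation arrays and 0.00 to 1.19 on the post-lactation arrays, and all 5 measured markers fell (Slc4a1, Alas2, Klf1, Hemgn and Rhag). Their part in the fall of the replication, mitosis and iron genes was not tested. Neutrophil markers, the brightest of the blood cell markers, were at 8.31 to 8.88 in lactation and 8.66 to 8.92 after weaning, with 0 of 7 called. Of the 19 measured genes of the wider neutrophil list 0 were called, 12 were higher and 7 lower, and the median was 0.31. At an unadjusted p under 0.05, 9 were higher and 0 lower, beside 5.65% of all genes that were higher at that p.

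**Figure D4:**
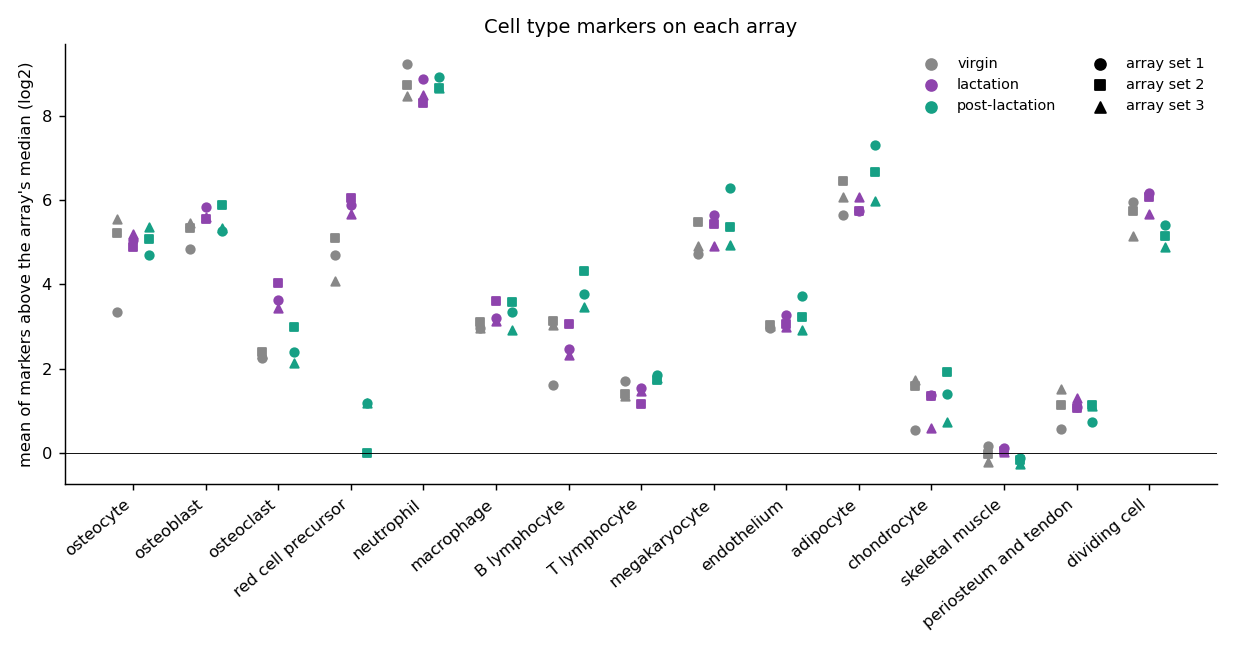
Mean log2 level of cell type markers above the median of each array, for virgin (grey), lactation (purple) and post-lactation (green) arrays, with the symbol giving the array set. Red cell precursor markers drop from 5.68 or more in lactation to 1.19 or less after weaning, osteoclast markers are highest in lactation, and osteocyte markers of both groups lie between 4.70 and 5.37.

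Resorption genes, which dissolve mineral and cleave matrix, follow here. The study itself had picked out Acp5, Ctsk, Atp6v0d2, Mmp13 and Slc9b2 on these arrays, so their direction is not independent evidence. All 16 measured members of the acid and matrix resorption list were lower after weaning, beside 49.6% of all genes. The 4 that fell, beside 2.35% of all genes, were Car2, Acp5, Atp6v0d2 and Ctsk. The median was -0.50, with -0.58, -0.58 and -0.41 within sets. Only Car2 was called without the block, only Car2 with the 6 arrays alone, and 1 member was called without any 1 lactation array, against 5 without virgin 3. At an unadjusted p under 0.05, 11 members were lower and 0 higher, beside 1730 lower and 1028 higher of all 18194 genes.

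Car2, carbonic anhydrase 2, makes protons for acid secretion in osteoclasts and is also a red cell enzyme. Its levels were 12.46, 12.87 and 11.84 in lactation and 8.21, 8.91 and 8.97 after weaning, with 11.09, 12.22 and 11.07 on the virgin arrays. Every post-lactation array lay below every lactation and virgin array. It fell 12.9-fold (difference -3.69, SE 0.20, adjusted p 0.0023), with -3.62, -3.89 and -3.55 within sets 1, 2 and 3, and the call held with any 1 array left out. The fall in red cell markers given above moved with it, and their part in the result was not tested.

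Acp5, the tartrate-resistant acid phosphatase of osteoclasts, was at 11.96, 13.26 and 12.57 in lactation and at 10.39, 10.16 and 11.95 after weaning. The groups did not overlap, but post-lactation 3 lay just below lactation 1, an array of another set. Within sets Acp5 differed by -2.18, -1.31 and -1.79, and it fell 3.39-fold (difference -1.76, SE 0.22, adjusted p 0.019). Without the block the adjusted p was 0.43. The call was also lost without any 1 lactation array or without post-lactation 1 or 2, with differences of -2.00 to -1.56.

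Ctsk, cathepsin K, which cleaves collagen in acid, went from 12.11, 12.83 and 11.94 to 10.50, 10.74 and 11.69, with within-set differences of -1.44, -1.14 and -1.37. All post-lactation arrays were lower, post-lactation 3 by the least against the other sets. The difference was -1.31 (SE 0.21, adjusted p 0.046, and 0.50 without the block). Atp6v0d2, the osteoclast form of a proton pump subunit, was at 9.15, 9.37 and 8.93 in lactation and 7.42, 7.41 and 8.31 after weaning and differed by -1.44 (SE 0.24, adjusted p 0.049, and 0.12 without the block). Ctsk and Atp6v0d2 each kept the call in 1 of the 9 fits that left out an array, with differences of -1.48 to -1.15 and -1.69 to -1.18. Mmp13, a collagenase, was at 13.28, 13.27 and 12.42 against 10.51, 11.84 and 12.58. Its groups overlapped through post-lactation 3 and its difference of -1.35 (SE 0.25) did not pass (adjusted p 0.072).

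No further gene of the resorption list or of the proton pump was called. Of 21 proton pump subunits 20 were lower, beside 49.6% of all genes, with a median of -0.23. Atp6v0d2 alone fell, 1 of 21 beside 2.35% of all genes. Tcirg1, the pump's osteoclast a3 subunit, differed by -0.06. Slc9b2, a sodium-proton exchanger of osteoclasts, differed by -1.62 and Clcn7, the chloride channel partner of the pump, by -0.40, neither called. Of 21 genes of osteoclast fusion and identity, 3 fell, beside 2.35% of all genes. They were Oscar (-1.25), an osteoclast receptor, Dcstamp (-1.22), needed for cell fusion, and Rab38 (-1.04). None of them was called without the block or without any 1 lactation array, and the list's median was -0.06. Of the 21 members 11 were lower and 10 higher. At an unadjusted p under 0.05, 8 were lower and 4 higher, beside 1730 lower and 1028 higher of all 18194 genes. Nfatc1, the master transcription factor of osteoclasts, differed by 0.31, and Tnfrsf11a, the receptor RANK, by 0.12. The mean of 7 osteoclast markers was 3.44 to 4.03 above the array median in lactation and 2.14 to 2.99 after weaning. All 7 were lower and 5 fell. These 5 were Acp5, Ctsk, Atp6v0d2, Oscar and Dcstamp, already given above, so the markers are not a separate measure. The part of osteoclast number in the resorption genes was not tested.

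**Figure D5:**
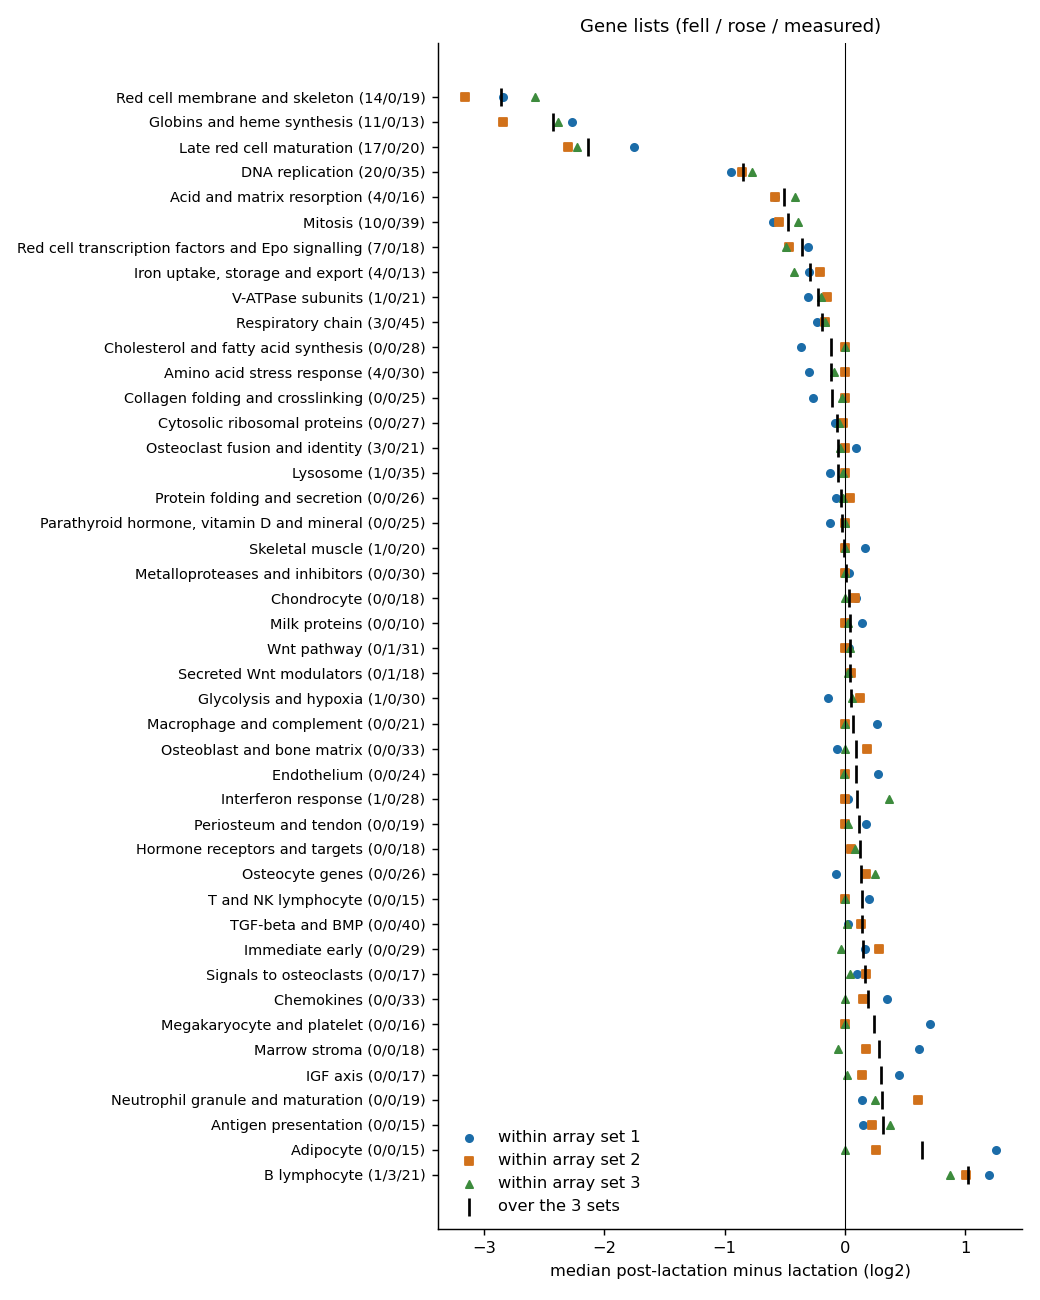
Median difference post-lactation minus lactation (log2) of each of the 44 gene lists, over the 3 sets (black) and within each set (coloured), with the numbers of genes that fell, rose and were measured in brackets. Red cell lists lie at the low end, with medians of -2.86, -2.43 and -2.14, B lymphocyte genes lie at the high end at 1.03, and osteocyte genes lie near 0 at 0.14.

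Of 26 measured osteocyte genes 0 were called in limma's fit, with or without the block or with the 6 arrays alone. Without virgin 3, 2 were called as risen, Slc20a2 and Kcnk2, and 0 were called without any other 1 array. Of these genes 20 were higher and 6 lower, beside 50.2% of all genes that were higher, and the median was 0.14. In all 3 sets 8 were higher and 2 lower, and the set medians were -0.07, 0.18 and 0.25. At an unadjusted p under 0.05, 5 were higher and 0 lower, beside 5.65% of all genes that were higher at that p. Sost, which encodes sclerostin, was at 12.61, 12.57 and 12.27 in lactation and 11.59, 12.90 and 13.00 after weaning, so that the groups overlapped. The difference was 0.02 with an SE of 1.00, and virgin 1, at 8.14, enters that SE. Dmp1, a matrix phosphoprotein, differed by 0.04 (SE 0.29), Phex, the phosphate-regulating peptidase, by 0.21 (SE 0.51), and Mepe, a mineralisation inhibitor, by -0.27 (SE 0.67). Kcnk2, a potassium channel, was furthest from 0 with a difference of 1.15 (adjusted p 0.18). The osteocyte markers were at 4.90 to 5.20 above the array median in lactation and 4.70 to 5.37 after weaning. Of these 7 markers 6 were above 4.87 in both groups and Fgf23, a phosphate hormone, was below it.

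Signals from bone cells to osteoclasts were also not called. Tnfsf11, or RANKL, differed by 0.17 (SE 0.24) and its decoy Tnfrsf11b by -0.35 (SE 0.50). Il6, a cytokine, was at 8.75, 8.71 and 8.53 in lactation and 9.77, 9.65 and 10.15 after weaning. Its groups did not overlap, and its difference of 1.20 (SE 0.27) did not pass (adjusted p 0.12). Il6 was called in 1 of the 9 fits that left out an array, the fit without virgin 3. Pth1r, the parathyroid hormone receptor, differed by -0.25 (SE 0.38). Among 33 osteoblast and matrix genes 0 were called in limma's fit. At an unadjusted p under 0.05, 4 were lower and 4 higher, beside 1730 lower and 1028 higher of all 18194 genes. Col1a1, the main collagen chain of bone, differed by -0.02 (SE 0.11), while Omd, a proteoglycan of mineralised matrix, differed by 1.99 (SE 0.45, adjusted p 0.12). Omd too was called only in the fit without virgin 3 among those that left out 1 array.

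Sfrp2, a secreted Wnt modulator, was the largest called rise. It was at 4.37, 4.23 and 4.03 in lactation and 6.67, 6.20 and 6.27 after weaning, with virgin arrays at 5.14, 4.75 and 5.34 between them. The lactation and post-lactation arrays lay more than 1 log2 unit apart. Sfrp2 rose at least 2.85-fold (difference 2.17, SE 0.18, adjusted p 0.0047, and 0.0017 without the block), and its call was lost without lactation 3 or post-lactation 1, with differences of 1.99 to 2.37. With the 6 lactation and post-lactation arrays alone it was not called (adjusted p 0.066). It was the 1 risen gene called without the block. It was the only gene called of 18 secreted Wnt modulators, and of 31 Wnt pathway genes only Nkd1, an inhibitor of the pathway, rose, by 0.49 with both means below 4.87.

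Genes of the B lymphocyte list were mostly higher after weaning, and few of them were called. Of 21 members 20 were higher, beside 50.2% of all genes, and 18 of them in all 3 sets, beside 12.8% of all genes. The share of 12.8% is likewise held down by exactly equal values within sets. The median was 1.03, with 1.20, 1.01 and 0.88 within sets. The 3 members Dntt, Il7r and Mzb1 rose, beside 0.28% of all genes, and Cd24a, which red cell precursors also carry, fell by 0.84. None of the 4 was called without the block or with the 6 arrays alone, where only Pou2af1 (1.19) was called, and 0 members rose without lactation 2 or 3, 1 or 2 without lactation 1 or any 1 post-lactation array, and 7 without virgin 1. At an unadjusted p under 0.05, 14 were higher, beside 5.65% of all genes that were higher at that p. Dntt, the polymerase that adds bases at joined antibody gene segments, was at 7.35, 8.09 and 6.79 in lactation and 8.60, 8.64 and 9.79 after weaning. The groups did not overlap, and the difference was 1.60 (SE 0.14, adjusted p 0.0055), with 0.52 without the block. A second bright probe set of Dntt rose by 1.71. The call was lost without lactation 2 or 3, with differences of 1.45 to 1.76.

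Il7r, the receptor for interleukin 7 on lymphoid precursors, was at 7.09, 7.52 and 7.04 in lactation and 8.51, 7.97 and 8.43 after weaning and rose 2.13-fold (adjusted p 0.025, and 0.15 without the block). It lost its call in 6 of the 9 fits that left out an array, with differences of 0.89 to 1.22. The surrogate light chains Vpreb1 (1.97, adjusted p 0.072) and Igll1 (1.60, adjusted p 0.13) and the recombinase Rag1 (1.62) were higher and did not pass. Cd79a, a part of the B cell receptor, differed by 0.82 and Ms4a1, a marker of mature B cells, by 0.56. B lymphocyte markers were 2.33 to 3.07 above the array median in lactation and 3.46 to 4.33 after weaning, with 0 of 5 called in limma's fit.

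Of the 51 risen genes 46 were in no list. The 15 largest rises were Sfrp2, Dntt, Ly6d, Tcn2, Il7r, Myl10, Lrmp, Tex15, Arhgap25, Pik3cg, Plekha2, Ptpn18, Acap1, Mzb1 and Tifa, of which Sfrp2 alone was called without the block and 0 with the 6 arrays alone, where their adjusted p ran from 0.054 to 0.13. Ly6d, a surface marker of B-lineage precursors, rose 2.70-fold by the fit, but its groups overlapped, at 7.01, 7.35 and 5.79 against 6.91, 8.37 and 9.17. Tcn2, the vitamin B12 carrier transcobalamin, was at 9.98, 9.70 and 9.60 against 10.64, 10.86 and 11.05 without overlap and rose 2.13-fold (adjusted p 0.035). Pik3cg, the leukocyte phosphoinositide kinase, rose 1.88-fold and Arhgap25, a leukocyte regulator of Rac, 2.00-fold. Of these, Arhgap25 kept its call in 6 of the 9 fits that left out an array, Ly6d in 2, and Tcn2 and Pik3cg in 1. Klhl6 (0.83), Irf8 (0.63) and Foxp1 (0.61), known from B cells, were picked from the risen genes after the values were seen. How many such genes were measured was not counted, and none of them was called without the block.

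A few metabolic genes fell beside the red cell groups. Asns, which makes asparagine, was at 8.40, 8.86 and 8.25 in lactation and 6.25, 6.81 and 6.81 after weaning. Its groups lay more than 1 log2 unit apart and it fell 3.68-fold, with and without the block (adjusted p 0.016 and 0.011) but not with the 6 arrays alone. Slc7a5, the large neutral amino acid carrier, fell 2.16-fold and kept its call with any 1 array left out, although the adjusted p without the block was 0.059, and it alone of its list was called with the 6 arrays. Together with Aldh18a1 and Aars these were the 4 that fell of 30 measured amino acid stress genes, beside 2.35% of all genes. Between 1 and 4 members fell with 1 array left out, and the list's median was -0.12. Atf4, the transcription factor of that response, differed by -0.0020. Of 45 respiratory chain genes 41 were lower, beside 49.6% of all genes, and the median of the list was -0.19. Atp5b, Cyc1 and Cox6c fell, 3 of 45 beside 2.35% of all genes. No member was called without the block, with the 6 arrays alone or without any 1 array other than virgin 1, whose removal gave 4. Rsad2, an antiviral enzyme induced by interferon, fell 4.67-fold (adjusted p 0.032, and 0.072 without the block), a second of its 3 probe sets also fell and the other one was lower by 2.52 without a call. Of the 28 interferon genes measured it was the only one called, and it kept its call in 2 of the 9 fits that left out an array.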

How the data were processed

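Per the labels, biotin-labelled cRNA from each sample was hybridised to an Affymetrix M430 array. The deposited log2 values were made by the authors with RMA, per the submitters' processing notes, which corrects background, equalises distributions and summarises probes. The version of RMA is not given in the sources used here. No value was missing and no log was taken again. Per the values, the arrays had been summarised in 3 sets, so levels compare best within a set.

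A total of 45101 probe sets on 9 arrays were fitted with limma 3.58.1 in R 4.3.3 (lmFit, eBayes), with group and set as terms. Of these probe sets, 34958 named 1 gene, 932 several and 9211 none. On simulated arrays the fit called 78 of 100 added differences of 1 and 96 of 100 of 2, with 7 false calls. The simulated noise was independent between arrays and gave no equal values within sets, so it cannot show how the fit behaves with them. Each of 18194 genes is represented by its brightest probe set. Medians and counts were made with Python 3.11.15 and pandas 2.3.3, and figures with matplotlib 3.10.9. A group mean below 4.87, the 40th percentile, was raised to it for a fold, given as at least. The number of arrays limits the precision.

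The members, the design and the 44 gene lists were chosen with earlier results of these data known; of 1132 symbols in the lists 1038 were found, 6 through a synonym. Named genes are fixed bone genes, the 15 largest called falls and rises whose sign was equal across sets and whose higher mean exceeded 4.87, and in each list up to 4 called members, or, with none called, the 2 largest differences. Other list members are given as examples, and genes named beyond the lists were chosen after their values were seen. Alternatives were the block, the arrays, the probe sets, the normalization, the variance model, the filter and the level for folds.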

Additional observations from a re-analysis of the deposited data

How the results depend on the processing

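Counts are given as probe sets called, genes fallen and genes risen, which were 762, 428 and 51 in the analysis reported. Without the array set as a block they were 159, 100 and 1, with the replicate number of the titles as the replicate block 151, 98 and 1, and with the 6 lactation and post-lactation arrays alone 89, 59 and 3. The title numbers cross the array sets, so they do not pair the samples. The risen genes numbered 98 with 1 probe set per gene in the fit, 85 with the mean of a gene's probe sets, 81 with dim probe sets left out and 77 after quantile normalization, while the fallen genes stayed between 368 and 544 in these and under the other variance models and centring. Without array set 1 limma called 0, 0 and 0, with 4821 probe sets at an unadjusted p under 0.05. Without set 2 it called 69, 48 and 0 (3762 unadjusted), and without set 3 14, 13 and 0 (3593 unadjusted). These fits hold fewer arrays. With 1 array left out the counts ran from 183 to 952, 116 to 474 and 2 to 116. Of 68 called genes among those named, 12 kept the call in all 9 such fits and 0 changed sign. Without a call in either case, Serpinh1 turned to 0.49 with the mean of its probe sets. With 1 array left out, the medians of 15 of the 44 lists took both signs, 10 of them lists whose reported median lay within 0.1 of 0. The widest such ranges were -0.16 to 0.45 for megakaryocyte and platelet genes, -0.078 to 0.21 for endothelium, -0.084 to 0.14 for glycolysis and hypoxia, -0.021 to 0.23 for T and NK lymphocytes and -0.015 to 0.29 for immediate early genes. The cause of these changes was not tested.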

Other observations

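Adipocyte genes were higher after weaning in set 1 above all. The median over 15 genes was 1.26 in set 1, 0.26 in set 2 and 0.00 in set 3, and 0 were called in limma's fit. At an unadjusted p under 0.05, 4 were higher and 0 lower, beside 5.65% of all genes that were higher at that p. Scd1, which desaturates fatty acids, was at 9.92, 9.06 and 9.02 in lactation and 11.55, 10.07 and 10.51 after weaning, a difference of 1.37 (SE 0.64, adjusted p 0.46). Megakaryocyte and platelet genes had medians of 0.71 in set 1 and 0.00 in sets 2 and 3, and marrow stroma genes 0.62, 0.18 and -0.06. In these 3 lists the difference lay mostly in the pair of lactation 3 and post-lactation 1.

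Timp1, an inhibitor of metalloproteases, was at 9.57, 9.47 and 9.12 in lactation and 6.93, 8.04 and 8.61 after weaning. Its groups did not overlap, and the difference of -1.52 (SE 0.28) did not pass (adjusted p 0.065). Agtr1a, the angiotensin receptor, was named after its values were seen. It went from 6.12, 6.43 and 6.40 to 4.26, 5.20 and 4.79 and fell at least 2.74-fold, with and without the block (adjusted p 0.032 and 0.031) but not with the 6 lactation and post-lactation arrays alone. Fpr2 and Mmp8, of the neutrophil list, were higher by 1.08 and 1.00 without overlap and without a call (adjusted p 0.29 and 0.32).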
